A study of Mus musculus with 17 samples.

Results

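*Dbp*, a clock-controlled transcription factor gene whose mRNA cycles over the day, stood at 2 levels among the 10 female libraries of perigonadal white adipose tissue (pWAT), a visceral fat depot next to the ovaries or testes. The members of both sets were chosen by the normalized count of *Dbp* in these libraries. The 4 mice with at least 220 normalized counts of *Dbp* are called high-*Dbp* mice here, and the 6 mice below 220 are called low-*Dbp* mice. Each set held both genotypes in equal number, with 2 WT and 2 U9-KO mice in the high set and 3 WT and 3 U9-KO mice in the low set. They were 10 of the 17 mice sequenced, and the other 7 were males. Because that value was measured in the libraries compared, every difference between the sets is given as a description, with its standard error and with no test. Tests were made only in the 7 males, whose values the split did not use, and between the genotypes.

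Mice were littermates from crosses of heterozygous breeders on the C57BL/6J background. U9-KO mice lacked all exons of the long noncoding RNA gene *U90926*, and WT littermates carried both copies. All 17 mice were fed standard chow, with no treatment groups, and each gave 1 library of polyadenylated RNA. They came from a phenotyping cohort. By the methods, its tests included food withdrawal with bleeding, a glucose tolerance test and imaging under anesthesia. Age at collection was 16 weeks by the methods and 19 weeks by the phenotyping schedule, and the time of day at collection was not given in the sources used here. The groups by label were 5 WT females, 5 U9-KO females, 3 WT males and 4 U9-KO males.

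Values are normalized counts, in which each library's reads per gene were scaled by its size factor and then rounded, so sequencing depth in reads is unknown. Summed over genes they ranged from 20243688 to 23313183 in high-*Dbp* mice, from 21383294 to 28620744 in low-*Dbp* mice and from 22024872 to 23916425 in males. *U90926* was at 0 in 15 of the 17 mice and at 1 in WT female 3 and WT male 2, so the targeted gene could not check the genotype labels. The adipocyte genes *Adipoq* and *Fabp4* were abundant in all 10 females, with at least 27618 and 65303 normalized counts. RNA of ovarian genes was also present in unequal amounts, and its values are given beside the results below. In whole tissue, fewer cells of a type and less RNA per cell cannot be told apart.

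The circadian clock is a loop of transcription factors present in most cells, adipocytes included. BMAL1, encoded by *Arntl*, pairs with CLOCK or NPAS2 and activates genes with an E-box (CACGTG), among them the *Per* and *Cry* genes, whose proteins repress BMAL1 in turn. It also activates *Nr1d1* and *Nr1d2*, which encode the nuclear receptors REV-ERB alpha and beta, and these repress *Arntl*, *Npas2* and *Nfil3* through elements with the core AGGTCA. *Dbp* is itself activated through E-boxes, and DBP, TEF and HLF activate genes with a D-box (such as TTATGTAA), which NFIL3 represses. In cycling tissues the RNA of *Dbp*, *Nr1d1*, *Nr1d2* and *Per3* peaks in the same part of the day, and that of *Arntl*, *Npas2* and *Nfil3* near the opposite part.

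The sequences at the start of 5 of these genes show where the motifs stand. *Dbp* defined the split, *Nr1d2* and *Arntl* were the clock genes that separated the sets, and *Ciart* and *Per3* hold E-boxes and D-boxes. The RefSeq table for GRCm38.p6 had windows of 300 bases, from 250 before to 50 after the start, for 30 of the 38 clock genes described here. CACGTG, TTATGTAA and AGGTCA were searched on both strands, and no match overlaps another in the stretches shown. The 250 bases before the start are printed 5′ to 3′ on the gene's strand, in lower case with any such motif in capitals. For *Arntl* a run of 30 bases just after the start is shown.
*Dbp*, chr7:45704997-45705246, plus strand: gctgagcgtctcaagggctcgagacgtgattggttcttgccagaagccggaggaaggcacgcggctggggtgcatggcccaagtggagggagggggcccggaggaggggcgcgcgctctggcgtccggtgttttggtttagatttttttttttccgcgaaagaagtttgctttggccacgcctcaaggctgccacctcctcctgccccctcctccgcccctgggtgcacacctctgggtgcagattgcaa
*Nr1d2*, chr14:18239107-18239356, minus strand: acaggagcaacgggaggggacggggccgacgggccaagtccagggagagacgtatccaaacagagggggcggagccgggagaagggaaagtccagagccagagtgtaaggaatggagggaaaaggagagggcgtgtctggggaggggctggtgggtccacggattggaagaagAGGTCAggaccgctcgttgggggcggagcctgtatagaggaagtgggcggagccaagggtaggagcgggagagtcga
*Ciart*, chr3:95882229-95882478, minus strand: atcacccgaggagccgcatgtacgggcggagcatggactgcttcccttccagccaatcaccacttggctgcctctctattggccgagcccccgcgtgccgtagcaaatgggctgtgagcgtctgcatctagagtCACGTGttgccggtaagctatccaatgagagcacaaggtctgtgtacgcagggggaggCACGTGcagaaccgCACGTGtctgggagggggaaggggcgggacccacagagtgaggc
*Per3*, chr4:151044666-151044915, minus strand: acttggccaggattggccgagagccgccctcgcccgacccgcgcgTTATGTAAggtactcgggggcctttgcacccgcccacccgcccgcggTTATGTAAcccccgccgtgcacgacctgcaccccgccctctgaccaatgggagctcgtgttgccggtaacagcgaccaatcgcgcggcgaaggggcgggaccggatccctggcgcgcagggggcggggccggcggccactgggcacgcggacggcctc
*Arntl*, chr7:113207530-113207559, plus strand: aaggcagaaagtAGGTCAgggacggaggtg

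*Ciart* held 3 E-boxes and *Per3* held 2 D-boxes in these stretches, *Nr1d2* and *Arntl* each held 1 AGGTCA, and *Dbp* held none of the 3 motifs. Of all 32851 windows in the table, 7.15% held CACGTG, 0.938% held TTATGTAA and 16.3% held AGGTCA. The 30 clock genes had 43 windows, as some have several starts, and 8 of these (18.6%) held CACGTG, 7 (16.3%, the share of all windows) held AGGTCA and 1 (2.33%), that of *Per3*, held TTATGTAA. A match is a stretch of letters and not a shown binding site.

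*Dbp* (ENSMUSG00000059824, chromosome 7, 45705088 to 45710203) had 310 normalized counts in WT female 4, 321 in WT female 5, 324 in U9-KO female 1 and 296 in U9-KO female 2. The 6 low-*Dbp* mice ranged from 109 to 144, with a median of 125. The mouse just above the threshold was thus U9-KO female 2 with 296 and the mouse just below it U9-KO female 5 with 144, and no mouse lay near 220. The means were 312.8 ± 12.7 (SD, n = 4) and 126.5 ± 12.7 (SD, n = 6), a difference of 1.30 on the log2(normalized count + 1) scale (SE 0.11), or 2.47-fold. Per kilobase of exon, *Dbp* ranked 25 of the 38 clock genes in level, with 67.2 normalized counts per kilobase against 1590 for *Por*, the highest.

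Beyond *Dbp*, 2 of the other 37 clock and clock-output genes separated the 4 mice from the 6 without overlap. *Nr1d2* was higher and *Arntl* was lower in the high-*Dbp* mice. Over all 24825 genes, the sets did not overlap for 182, or 0.733%, with 105 higher (0.423%) and 77 lower (0.31%) in the high-*Dbp* mice. Of the 37, 13 had a higher and 24 a lower mean in the high-*Dbp* mice, against 12266 higher and 12559 lower among all genes.

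**Figure D1:**
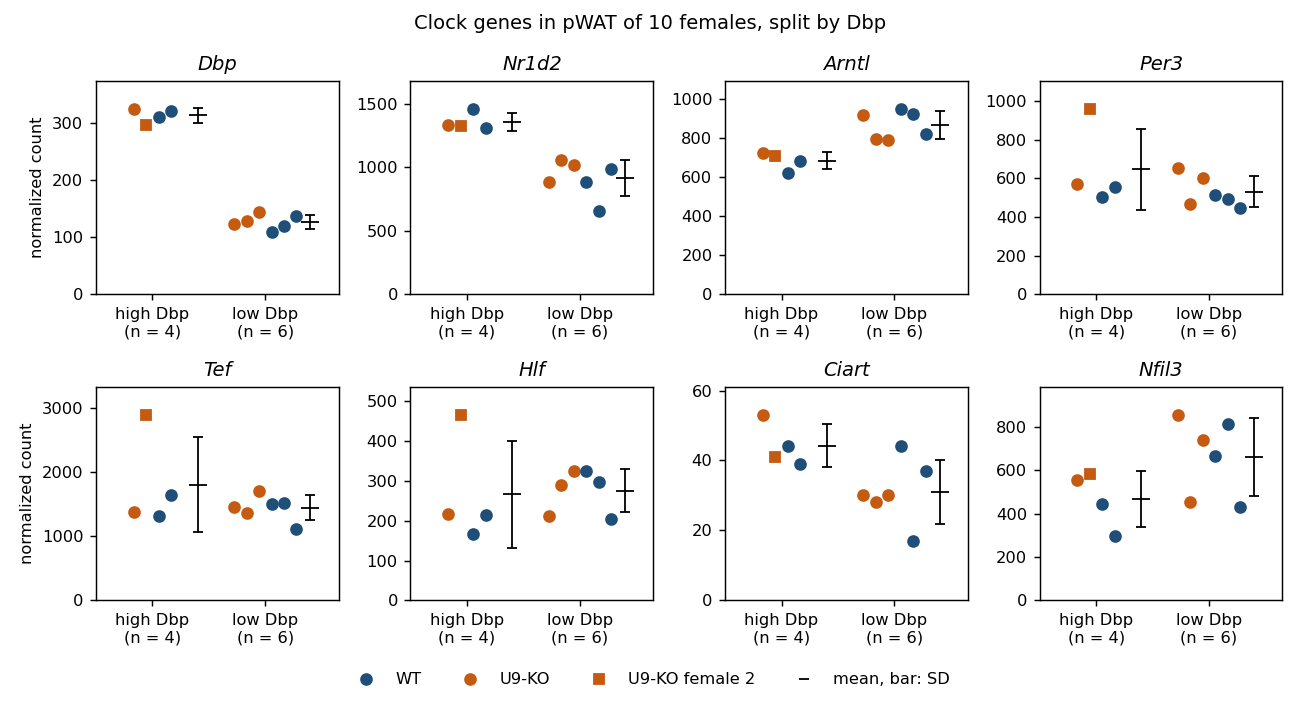
Normalized counts of 8 clock genes in each of the 10 females, with the 4 high-*Dbp* and 6 low-*Dbp* mice on the horizontal axis, points colored by genotype, the mean and SD of each set beside them, and U9-KO female 2 as a square. The sets stand apart for *Dbp*, *Nr1d2* and *Arntl* and overlap for *Per3*, *Tef*, *Hlf*, *Ciart* and *Nfil3*, and U9-KO female 2 has the highest value of *Per3* (959), *Tef* (2892) and *Hlf* (466).

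*Nr1d2* (ENSMUSG00000021775, chromosome 14, 18204054 to 18239127, minus strand), which encodes REV-ERB beta, had 1460 normalized counts in WT female 4, 1307 in WT female 5, 1329 in U9-KO female 1 and 1321 in U9-KO female 2. In the low-*Dbp* mice it ranged from 658 to 1057, with a median of 935.5. All 4 high-*Dbp* mice were above all 6 others, and the difference was 0.58 (SE 0.12), which is just under the fold of 1.5 used below. Within WT females the difference was 0.73, and within U9-KO females it was 0.43.

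*Arntl* (ENSMUSG00000055116, chromosome 7, 113207465 to 113314126), which encodes BMAL1, had 622 normalized counts in WT female 4, 684 in WT female 5, 722 in U9-KO female 1 and 707 in U9-KO female 2. The low-*Dbp* mice had 789 to 951, with a median of 869.5. Every high-*Dbp* mouse was below every low-*Dbp* mouse, with a difference of -0.34 (SE 0.09), -0.46 within WT and -0.22 within U9-KO females. The partners of BMAL1 did not separate the sets, with a difference of -0.11 (SE 0.10) for *Clock* and -0.20 (SE 0.16) for *Npas2*. Leaving out each female in turn, the difference ran from -0.37 to -0.30 for *Arntl* and from 0.49 to 0.63 for *Nr1d2*.

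Among the repressors, no gene separated the sets, and the differences ran from -0.15 for *Per1* to 0.54 for *Ciart*. *Per3* (ENSMUSG00000028957), which was to mark the split beside *Dbp*, had 504, 553, 568 and 959 normalized counts in WT female 4, WT female 5, U9-KO female 1 and U9-KO female 2, and 446 to 651 in the low-*Dbp* mice. The sets overlapped, and the difference of 0.25 (SE 0.18) rested largely on U9-KO female 2, since it was 0.05 without that mouse. *Per2* differed by -0.53 within WT and by 0.49 within U9-KO females. *Cry1* likewise was lower in both high-*Dbp* WT mice than in the other WT mice, with a difference of -0.53, and higher in both high-*Dbp* U9-KO mice than in the other U9-KO mice, with a difference of 0.30. With 2 mice against 3 in each genotype, many genes of any kind stand apart in this way. The difference between these 2 effects was not tested.

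*Ciart*, a repressor with the 3 E-boxes shown above, was scarce. It had 44, 39, 53 and 41 normalized counts in the 4 high-*Dbp* mice in the same order and 17 to 44 in the low-*Dbp* mice, with a median of 30. WT female 1, a low-*Dbp* mouse with 44, made the sets overlap, and the difference was 0.54 (SE 0.26). *Bhlhe40* and *Bhlhe41*, further E-box repressors, had differences of 0.12 (SE 0.29) and 0.22 (SE 0.34). The kinases and ubiquitin ligases of the clock stayed between -0.06 for *Fbxl21* and 0.15 for *Btrc*, and none separated the sets.

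*Nr1d1*, the closest relative of *Nr1d2*, did not follow it and had 1039, 2212, 1406 and 1522 normalized counts in the 4 high-*Dbp* mice and 827 to 2046 in the low-*Dbp* mice, with a difference of -0.07 (SE 0.27). *Rora* overlapped between the sets as well. *Rorb* had at most 18 normalized counts in any female, so its difference of 0.98 (SE 0.54) came from very low values.

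The relatives of *Dbp* did not follow it either. *Tef* had 1315, 1638, 1375 and 2892 normalized counts in WT female 4, WT female 5, U9-KO female 1 and U9-KO female 2, against 1115 to 1704 in the low-*Dbp* mice. *Hlf* had 167, 215, 217 and 466, against 205 to 326. For both genes U9-KO female 2 was above all other females, and the remaining 3 high-*Dbp* mice lay within or below the range of the low-*Dbp* mice. *Nfil3*, which represses through the D-box, had 445, 295, 553 and 581 against 431 to 855, a difference of -0.49 (SE 0.24) with overlap. U9-KO female 2 was the highest of the 10 females for 7 of the 38 clock genes, which were *Per2*, *Per3*, *Bhlhe41*, *Tef*, *Hlf*, *Usp2* and *Por*. WT female 4 was the lowest female for 9 of the 38, *Arntl*, *Clock* and *Avpr1a* among them, and U9-KO female 3, a low-*Dbp* mouse, was the highest for 6, *Nfil3* among them. These counts have no share over all genes beside them and are no result about the clock genes. U9-KO female 3 also had the highest summed normalized counts of the females (28620744) and WT female 4 the lowest (20243688).

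Of the 12 widely rhythmic outputs of the clock, 2 had a higher and 10 a lower mean in the high-*Dbp* mice, with a median difference of -0.17 that was 0.02 without WT female 4 and U9-KO female 1, and none separated the sets. *Wee1*, a cell cycle kinase gene driven through E-boxes, had 249, 185, 197 and 159 normalized counts against 90 to 178, a difference of 0.37 (SE 0.20). *Avpr1a*, a vasopressin receptor, had 86, 103, 102 and 160 against 137 to 197, a difference of -0.60 (SE 0.18). Without U9-KO female 2 these 2 genes did not overlap either, but in that comparison 3.27% of all genes were higher and 1.26% lower without overlap, as leaving out a mouse can only add to such genes. *Nampt*, the enzyme of NAD salvage, and *Herpud1* each differed by -0.01.

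By expected time of peak, the 11 genes listed here as peaking with or near *Dbp* had a median difference of 0.22, with 6 higher and 5 lower. They were *Per1*, *Per2*, *Per3*, *Ciart*, *Bhlhe41*, *Nr1d1*, *Nr1d2*, *Tef*, *Hlf*, *Usp2* and *Wee1*. The 5 genes that peak opposite *Dbp*, which were *Arntl*, *Npas2*, *Cry1*, *Nfil3* and *Clock*, were all lower, with a median of -0.20. This median was -0.46 within WT and -0.17 within U9-KO females, and in the latter *Clock* (0.04) and *Cry1* (0.30) were higher. Of the genes in both lists, only *Nr1d2* and *Arntl* separated the sets, and *Per3*, *Nr1d1*, *Npas2* and *Nfil3* were among those that did not. No clock phase was therefore assigned, and the sets are named by their *Dbp* level alone.

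**Figure D2:**
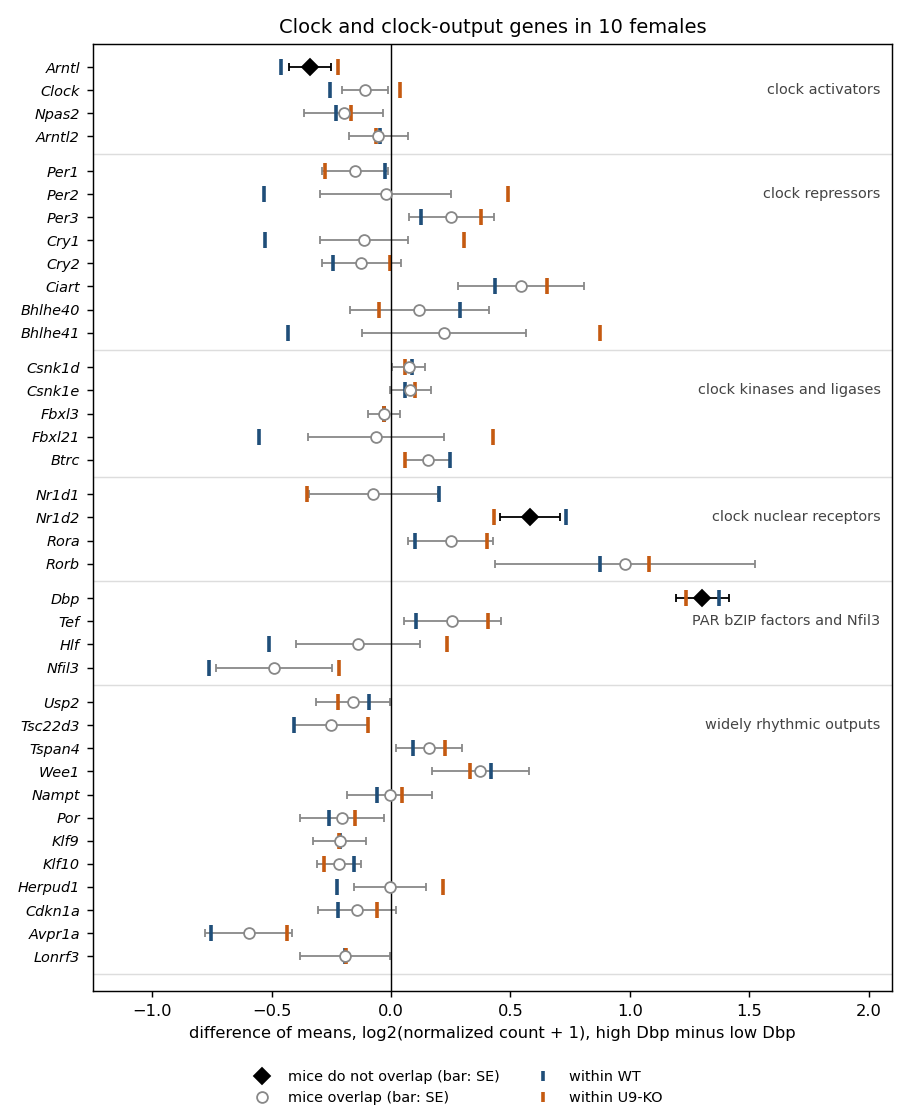
Difference of mean log2(normalized count + 1) between high-*Dbp* and low-*Dbp* females for 37 clock genes, by role, with the SE as a bar. Black diamonds are the 3 genes whose mice did not overlap (*Dbp* 1.30, *Nr1d2* 0.58, *Arntl* -0.34), open circles the other 34, and short vertical bars the differences within WT and within U9-KO females.

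In the 7 males, a set of mice the split did not use, each gene was fitted on log2 *Dbp* with genotype as a covariate. *Dbp* had 317, 482 and 305 normalized counts in the 3 WT males and 157, 165, 211 and 136 in the 4 U9-KO males. In limma's test 0 of 21929 slopes passed the threshold of 0.05 after adjustment, while 1801, or 8.21%, had an unadjusted p under 0.05. Without WT male 2 this count was 967, or 4.52%. Of the 36 clock genes fitted (*Dbp* was the predictor and *Rorb* was too low), 6 had an unadjusted p under 0.05, against that 8.21%. They were *Nr1d2* and *Per3* with positive slopes (4.15% of all genes) and *Arntl*, *Npas2*, *Nfil3* and *Cdkn1a* with negative slopes (4.06%).

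*Nr1d2* had a slope of 0.84 on the log2 scale per doubling of *Dbp* (SE 0.24), and its adjusted p in limma's test was 0.591. For *Arntl* the slope was -0.80 with an SE of 0.22, at the same adjusted p from limma, with the sign of its difference in females. Leaving out each male in turn, the slope of *Arntl* ran from -0.93 to -0.51, the last without WT male 2, and that of *Nr1d2* from 0.69 to 1.09. *Npas2* had -1.26 (SE 0.31), *Nfil3* -1.30 (SE 0.49), *Per3* 0.50 (SE 0.21) and *Ciart* 1.01 (SE 0.45), with adjusted p between 0.591 and 0.612 in limma's test. None of these slopes passed the threshold. In simulated data with known slopes, 9% of genes with a true slope of 1 up or down passed it. That simulation gave every gene the same relative spread between mice, which was not taken from these males. It therefore does not give the power for the genes named here. By expected time of peak, 10 of the 11 genes that peak with *Dbp* had positive slopes. Of those that peak opposite, 5 of 5 had negative slopes, where 52.4% of all genes had positive ones. The genes of these lists regulate each other and were measured in the same males, so they are not independent counts. The lists were also chosen with earlier results of these data known. This tally was not tested and was not repeated without WT male 2, the male with the most *Dbp*.

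**Figure D3:**
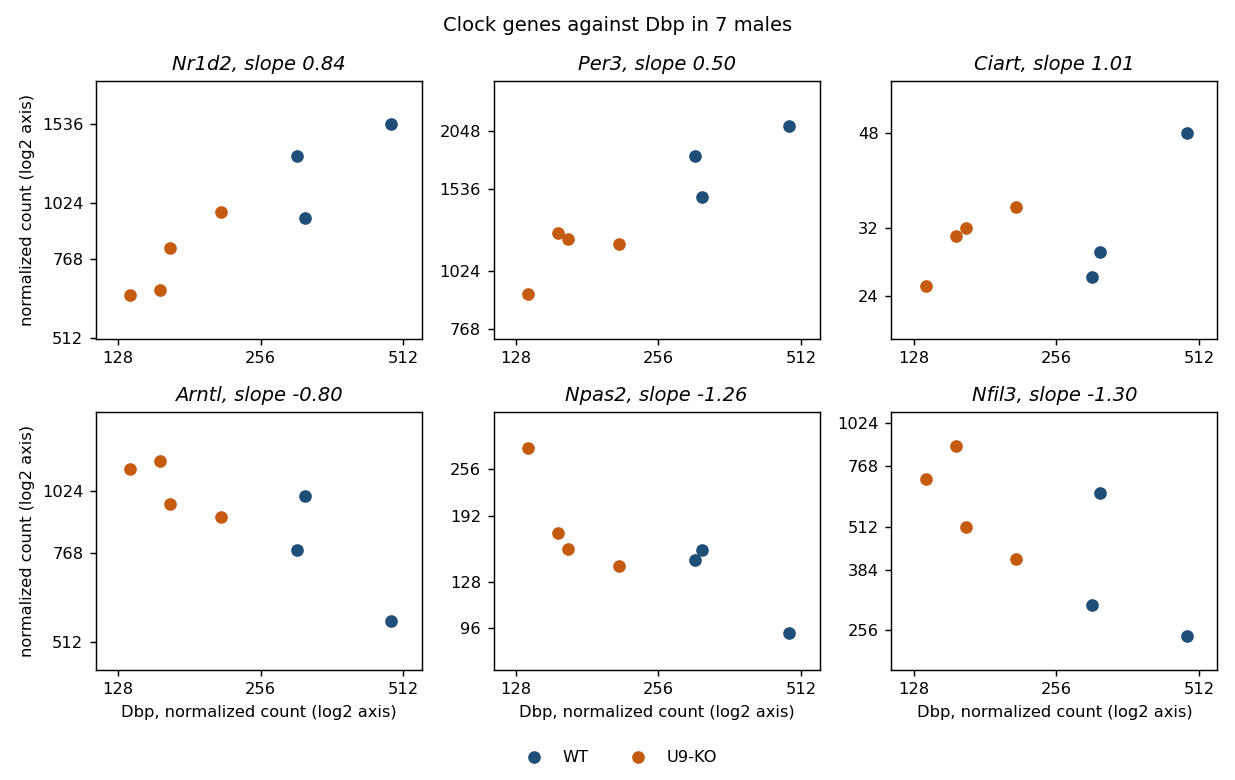
Normalized counts of 6 clock genes against *Dbp* in the 7 males, both on log2 axes, with the slope from the fit with genotype as a covariate above each panel. *Nr1d2*, *Per3* and *Ciart* have positive slopes (0.84, 0.50 and 1.01) and *Arntl*, *Npas2* and *Nfil3* negative ones (-0.80, -1.26 and -1.30), and WT male 2 has the highest *Dbp* (482).

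Across the male genotypes *Dbp* did not overlap, and its log2 fold change in U9-KO against WT was -1.12, with an SE of 0.19 and a limma adjusted p of 0.612. Of the 38 clock genes, 6 did not overlap between the male genotypes and all 6 were lower in U9-KO males, against 3.8% of 21930 genes lower without overlap. These were *Dbp*, *Per3*, *Tef*, *Klf9*, *Avpr1a* and *Csnk1d*, and 0 of the 38 were higher without overlap, against a further 3.8%. After adjustment 0 of 21930 genes passed limma's test between the male genotypes, and 1667 genes, or 7.6%, had an unadjusted p under 0.05. Among the clock genes 11 did, with *Dbp*, *Per3*, *Nr1d2*, *Tef*, *Klf9*, *Avpr1a*, *Tsc22d3* and *Tspan4* at lower and *Arntl*, *Cry1* and *Cdkn1a* at higher means in U9-KO males. Without WT male 1, 3345 of all genes, or 15.6%, had an unadjusted p under 0.05. *Arntl* and *Nr1d2* overlapped between the male genotypes, with log2 fold changes of 0.45 (SE 0.17) and -0.71 (SE 0.18), and that of *Arntl* was 0.23 without WT male 2.

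In females the genotypes overlapped for *Dbp*, since each held high and low mice, and its log2 fold change was 0.06 (SE 0.39). Of the 38 clock genes 1, the RING finger gene *Lonrf3*, had an unadjusted p under 0.05 between the female genotypes, against 2.23% of 24825 genes, and after adjustment 0 genes passed limma's test.

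WT male 2, the male with the most *Dbp*, also had the highest summed level of 7 B cell markers, with 1005 normalized counts against 292 to 497 in the other males. Its 5 lymph node stroma markers summed to 3756 against 974 to 1618, and its 8 macrophage markers to 44249 against 20417 to 31697. Its 6 adipocyte markers had the lowest sum of the 7 males, 559878 against 690783 to 841615, and its share of normalized counts from mitochondrial genes was also the lowest, at 3.58% against 4.46% to 5.72%. The gene with the smallest p for the slope was *Msln*, a mesothelial marker, with 2.01 (adjusted p = 0.18 in limma's test), and 4 of 6 mesothelial and 3 of 7 B cell markers had positive slopes with an unadjusted p under 0.05, against 4.15% of all genes. Their part in the slopes of the clock genes was not tested.

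Of the 157 genes other than *Dbp* that did not overlap between the female sets and were fitted in males, 84 were higher in high-*Dbp* females, and 50 of these had a positive slope in males. The other 73 were lower in high-*Dbp* females, and 30 of these had a negative slope in males. Among all genes 52.4% had a positive slope.

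Lists of adipocyte function had lower medians in the high-*Dbp* females, and these moved to near 0 without 2 mice. The median difference was -0.33 over 12 genes of lipolysis and lipid droplets (10 lower), -0.31 over 8 of fatty acid uptake (6 lower), -0.42 over 9 adipokine genes (7 lower) and -0.37 over 9 adipogenic factors (8 lower). These medians moved to 0.01, 0.06, -0.01 and -0.01 without WT female 4 and U9-KO female 1. Of the 138 genes in 13 lists of metabolism, hormone response and stress, 0 were without overlap, which is near the 0.733% of all genes and is no result about the lists. None was thus past a fold of 1.5 without overlap (0.213% of genes higher and 0.137% lower).

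*Adipoq*, which encodes adiponectin, had 30644, 60176, 27618 and 70236 normalized counts in WT female 4, WT female 5, U9-KO female 1 and U9-KO female 2, against 49174 to 72328 in the low-*Dbp* mice. WT female 4 and U9-KO female 1 were below all low-*Dbp* mice and the other pair lay among them. *Cidec*, a lipid droplet protein gene and per length the most abundant of its list, was likewise lowest in WT female 4 and U9-KO female 1, with 25973, 46166, 16338 and 38087 against 30243 to 44416. *Cfd*, which encodes the complement factor adipsin, had 116993, 205896, 110741 and 195111 against 158981 to 337997, with the same pair lowest. *Cebpa*, an adipogenic transcription factor, had 7706, 15023, 11518 and 18105 against 10467 to 22424. *Fabp4*, the fatty acid carrier of adipocytes, had 84388, 113870, 65303 and 124266 against 88900 to 163148.

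Lipogenesis varied more within each set than between them. *Scd1*, the fatty acid desaturase, had 131556, 205500, 456277 and 495714 normalized counts in the 4 high-*Dbp* mice and 85092 to 1353006 in the low-*Dbp* mice, with a difference of -0.06 (SE 0.73). The 13 lipogenic genes had a median difference of -0.77 within WT and 0.75 within U9-KO females, and -0.09 overall. Cholesterol synthesis genes did likewise, with -0.46 and 0.64, and *Insig1*, a regulator of sterol synthesis, had 2113 to 11054 against 1930 to 17020. The 9 triglyceride synthesis genes had -0.68 within WT and 0.02 within U9-KO females. The overall medians of these lists were 0.14 and -0.19. *Dgat2*, the enzyme of the last step of triglyceride synthesis, had 6293, 17508, 38143 and 50698 against 5650 to 92090.

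Genes of fatty acid oxidation and fasting had a median of -0.10, with *Acadl*, a mitochondrial dehydrogenase of fatty acid oxidation, at 3989 to 4588 against 3810 to 6457. Genes of glucose uptake and insulin signalling had a median of -0.23, and *Slc2a4*, the insulin-responsive glucose transporter, had 1961 to 6460 against 2475 to 9229. Thermogenic genes had a median of 0.36 at very low levels, summing to at most 867 in high-*Dbp* and 1477 in low-*Dbp* mice, and *Cox8b*, a subunit of cytochrome c oxidase, had 110 to 242 against 86 to 705. Glucocorticoid targets had a median of -0.21, which was 0.18 within WT and -0.32 within U9-KO females, with *Mt1*, a metallothionein gene, at 1013 to 3000 against 987 to 1791. Its members went both ways, from -1.07 for the scarce *Tat* to 1.31 for *Fkbp5* and 0.85 for *Sgk1*, and the last 2 were highest in WT female 4 and U9-KO female 1 and moved to -0.02 and -0.12 without them. Immediate early genes had a median of 0.17, with *Jun* at 1943 to 2325 against 1454 to 3656. Heat- and cold-responsive genes, some of which follow body temperature, had a median of 0.09, with *Hsp90ab1* at 28578 to 32453 against 25481 to 33429. Without WT female 4 and U9-KO female 1 the medians turned sign for fatty acid oxidation (0.096), glucose uptake (0.028), immediate early genes (-0.16), lipogenesis (0.16), cholesterol synthesis (-0.15) and triglyceride synthesis (0.091).

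**Figure D4:**
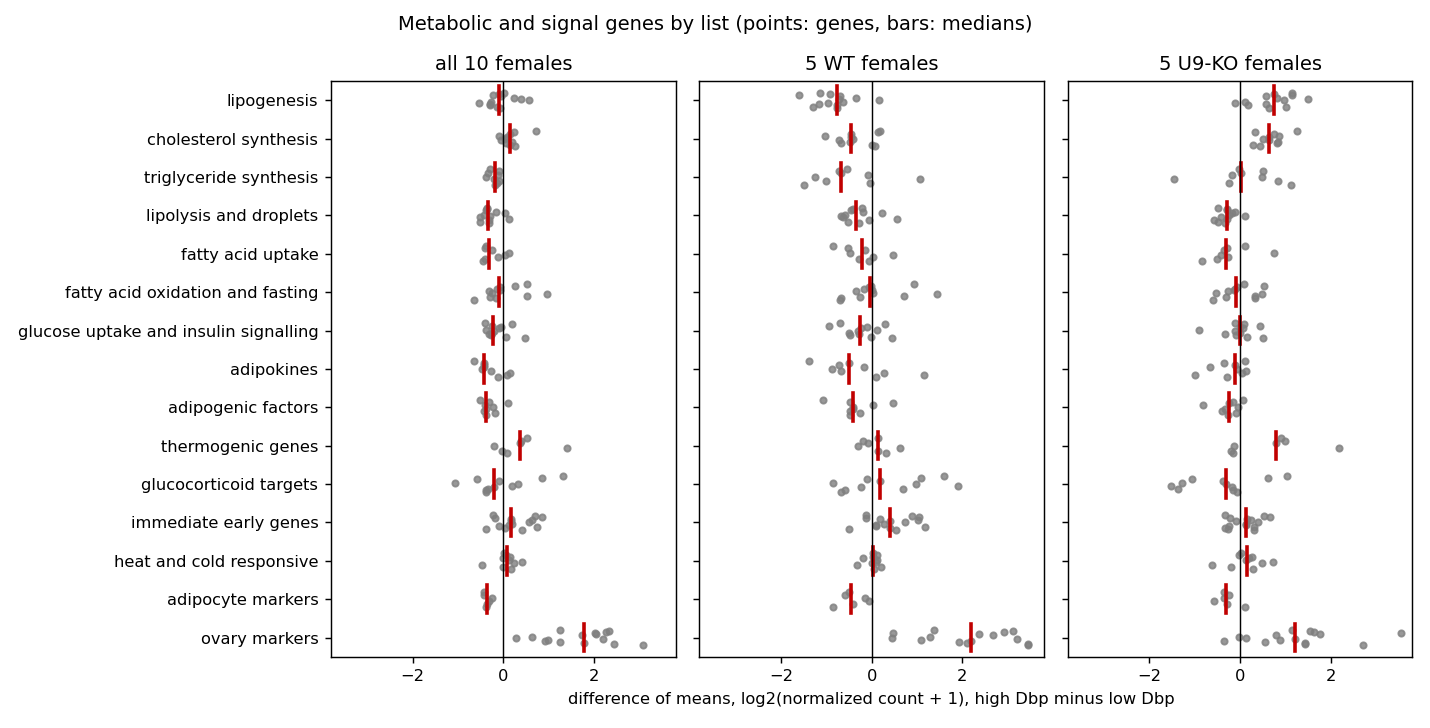
Differences of mean log2(normalized count + 1), high-*Dbp* minus low-*Dbp*, for the genes of 13 metabolic and signal lists and of adipocyte and ovary markers, with all 10 females, the 5 WT and the 5 U9-KO females in separate panels. Points are genes and red bars medians, and the median of lipogenesis lies at -0.77 in WT and 0.75 in U9-KO females while that of the ovary markers is above 0 in every panel.

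Ovarian RNA differed between the sets mainly through WT female 4 and U9-KO female 1. All 15 ovary markers had a higher mean in the high-*Dbp* mice, with a median difference of 1.78. Without those mice the median was 0.11. Of the 15, 0 separated the sets, which is near the 0.733% of all genes and is no result about the markers. Their summed level was 129618 in WT female 4, 39422 in WT female 5, 142644 in U9-KO female 1 and 6640 in U9-KO female 2, and it ranged from 6550 to 30047 in the low-*Dbp* mice. WT females 4 and 5 and U9-KO female 1 were thus above all low-*Dbp* mice and U9-KO female 2 was near the bottom. *Cyp11a1*, the enzyme that starts steroid synthesis, had 54629, 14293, 71595 and 1493 normalized counts in these 4 mice and 597 to 12991 in the others. The 6 adipocyte markers summed to 227297 and 235157 in WT female 4 and U9-KO female 1, and to between 320221 and 536690 in the other 8 females. Mesothelial markers summed to 6850 to 9902 in the high-*Dbp* and 6656 to 14422 in the low-*Dbp* mice, and B cell markers to 527 to 1728 and 346 to 1522. No marker of the 13 lists was at 0 in all females.

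**Figure D5:**
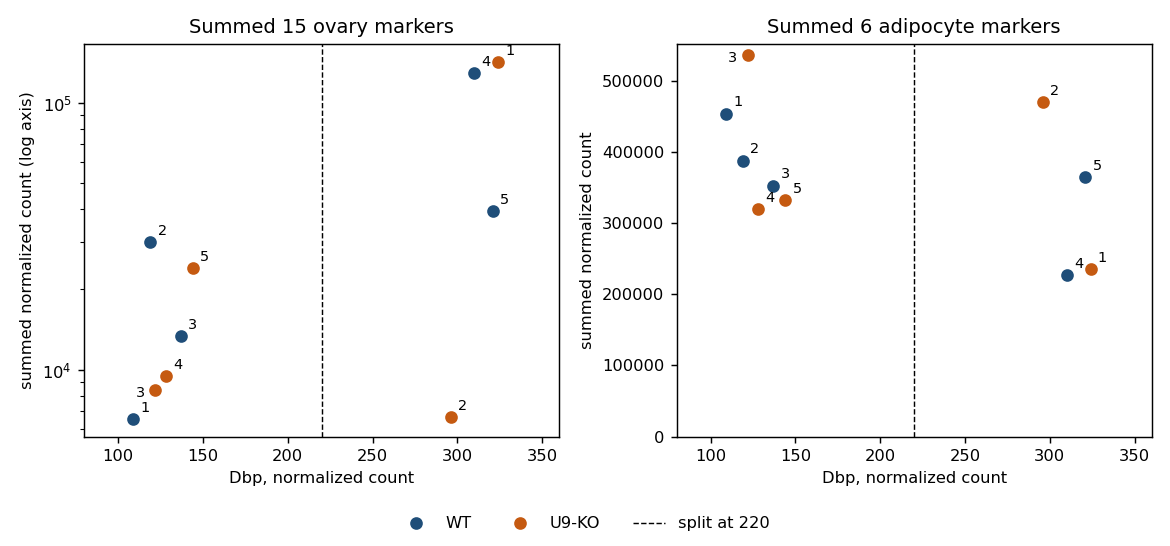
Summed normalized counts of 15 ovary markers (log axis) and 6 adipocyte markers (linear axis) against *Dbp* in the 10 females, colored by genotype and numbered by replicate, with the split at 220 as a dashed line. WT female 4 and U9-KO female 1 have the most ovarian RNA (129618 and 142644) and the lowest adipocyte sums, and U9-KO female 2 has 6640 of the ovary sum at high *Dbp*.

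Leaving out WT female 4 and U9-KO female 1, the differences of *Nr1d2* and *Arntl* were 0.54 and -0.31, against 0.58 and -0.34 with all mice. With a score of the ovary markers as a covariate they were 0.59 and -0.31. Without those 2 mice *Per3* differed by 0.47 and *Tef* by 0.60, both with overlap, and *Cdkn1a*, a cell cycle inhibitor gene, by -0.43, from -0.14 with all mice. Only WT female 5 and U9-KO female 2 then made up the high set. WT female 5 still had more ovarian RNA than any low-*Dbp* mouse, 39422 against at most 30047. The part of ovarian RNA in the differences of the clock genes was not tested. The values of *Per3* and *Tef* rested on U9-KO female 2 (959 and 2892), as WT female 5 (553 and 1638) lay within the low-*Dbp* ranges.

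Among genes averaging 100 normalized counts or more, 91 did not overlap, and 5 were higher and 5 lower by at least 1.5-fold. A further 77 genes past 1.5-fold had a mean under 100 and are not named. The number of all genes at a mean of at least 100 was not counted, so these counts have no share beside them. The 5 higher ones at that mean were *Dbp*, *Ryr2*, *Stc1*, *Susd4* and *Acss1*. *Ryr2*, a calcium release channel, had 430, 68, 253 and 89 normalized counts in WT female 4, WT female 5, U9-KO female 1 and U9-KO female 2, against 15 to 60, and the 2 mice rich in ovarian RNA were the highest. *Stc1*, which encodes the secreted protein stanniocalcin, had 1030, 264, 304 and 257 against 204 to 254, so WT female 4 set its mean. *Acss1*, the mitochondrial acetyl-CoA synthetase, had 818, 491, 578 and 469 against 326 to 465. Without WT female 4 and U9-KO female 1 the differences of these 3 genes went from 2.12, 0.81 and 0.60 to 1.09, 0.26 and 0.34. *Susd4*, a membrane regulator of complement, had 229, 169, 126 and 156 against 50 to 124, with a difference of 0.74 (SE 0.26) that was 0.71 without those mice.

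The lower ones were *Hspd1-ps4*, *Anxa9*, *Atp6v0a4*, *Irak2* and *Gm2415*, with differences between -0.65 and -0.60. *Irak2*, a kinase of interleukin-1 receptor signalling, had 550, 712, 584 and 682 normalized counts against 814 to 1171. *Anxa9*, a member of the annexin family, had 84 to 96 against 112 to 215. *Atp6v0a4*, a subunit of the proton pump V-ATPase, had 93 to 154 against 157 to 228. *Hspd1-ps4* is a processed pseudogene of the chaperone gene *Hspd1* and may share reads with it, and *Gm2415* is annotated as antisense to another gene, so both values are uncertain. In the males *Atp6v0a4*, *Anxa9* and *Ryr2* had slopes on *Dbp* opposite in sign to their female differences, 1.88, 0.68 and -0.85, and the adjusted p of the 9 genes other than *Dbp* lay between 0.591 and 0.977 in limma's test.

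Other genes of metabolism that did not overlap were smaller in difference, and *Pfkp*, *Alas1* and *Crls1* were chosen after their values were seen. *Pfkp*, a phosphofructokinase of glycolysis, had 1795 to 2094 normalized counts in high-*Dbp* and 2329 to 2716 in low-*Dbp* mice, with a difference of -0.37 (SE 0.08). *Alas1*, the rate-limiting enzyme of heme synthesis in most tissues, had 2447 to 3318 against 3327 to 4398, with a difference of -0.29 (SE 0.11). *Crls1*, which makes the mitochondrial lipid cardiolipin, had 1091 to 1267 against 1286 to 1598, also a difference of -0.29 (SE 0.08).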

How the data were processed

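Whole pWAT of 17 mice was sequenced as paired-end stranded libraries. The authors trimmed the reads, aligned them to GRCm38 with STAR 2.7.3a, counted reads in genes with summarizeOverlaps and ran DESeq2 1.28.1, the versions and build being those in the submitters' processing notes. The deposited files give 1 score for each gene and library, a normalized count that the authors scaled by library size factors and rounded to whole numbers. Raw counts were not analysed here, so a count model was not used and depth in reads is unknown. The series table repeats the single libraries and was not used. Of 55401 identifiers, GENCODE M21 named 55141.

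The members and lists were chosen with earlier results of these data known. Females were split at 220 normalized counts of *Dbp*. Differences are of mean log2(normalized count + 1), with standard errors from limma 3.58.1 in R 4.3.3 over all genes with a total of at least 10, and with no p. A gene was past 1.5-fold when its difference reached that fold and the sets did not overlap. In males, the slope on log2 *Dbp* with genotype as a covariate was tested with limma's moderated statistics and a mean-variance trend, two-sided, with Benjamini-Hochberg adjustment and a threshold of 0.05, and genotypes were tested likewise within each sex. The fits were tested on simulated data. Tables were made in Python 3.11.15 with pandas 2.3.3 and numpy 2.4.6.

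Named genes were the 38 genes of 6 clock lists, of which 1 is counted but not reported here, the member of each metabolic list with the highest level per kilobase with up to 4 members past 1.5-fold, and, at a mean of at least 100, up to 10 genes past 1.5-fold each way with the same sign in both genotypes. The same sign follows from the lack of overlap, so that condition could not remove a gene. Others named are marker genes or were chosen after their values were seen. Each mouse gave 1 library, and every pair of libraries of a group held different values. Alternatives were a pseudocount of 0.5, no filter, a mean of at least 10, TMM scaling, quantile normalization, no trend, robust empirical Bayes, each genotype alone, the replicate number as a block and leaving out each mouse. Added after the data were seen were leaving out WT female 4 and U9-KO female 1, and the ovary marker score as covariate. The replicate numbers of 2 male libraries differ between their columns and their labels, and the labels were used.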

Additional observations from a re-analysis of the deposited data

Results flagged for a closer look

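Within a set of 4 or 6 mice, 1 mouse stood far from the others for 8 of 92 combinations of gene and set examined, where chance flags about 1 in 20, or 4.6. In the high-*Dbp* mice, U9-KO female 2 had 959 normalized counts of *Per3* against 504 to 568 in the other 3, 466 of *Hlf* against 167 to 217, and 2906 of *Nampt* against 1940 to 2049. WT female 4 had 1460 of *Nr1d2* against 1307 to 1329 and 1030 of *Stc1* against 257 to 304. In the low-*Dbp* mice, U9-KO female 3 had 90 normalized counts of *Wee1* against 151 to 178 and 50 of *Susd4* against 102 to 124. WT female 1 had 1192 of *Hspd1-ps4* against 790 to 909.

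*Cry1* moved in opposite directions in the genotypes. Its difference between high-*Dbp* and low-*Dbp* mice was -0.53 in WT and 0.30 in U9-KO females, and in each genotype the 2 mice stood apart from the other 3. With 2 mice against 3, many genes of any kind stand apart in this way. The difference between these effects was not tested.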

How the results depend on the processing

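Counts of genes without overlap can only rise as mice are left out. With WT females alone there were 2517 higher and 1812 lower, 1233 and 756 of them past 1.5-fold, and 13 clock genes other than *Dbp*, and with U9-KO females alone 1513, 1639, 596, 683 and 8. With so few mice many genes of any kind do not overlap. The clock counts have no share over all genes beside them, so they are no result about the clock genes. Leaving out each mouse gave 133 to 804 higher, 109 to 327 lower, 64 to 566 and 47 to 125 past 1.5-fold, and 2 to 4 clock genes. The highest counts upward came without U9-KO female 2 (804 and 566), and those without WT female 5 were 408 higher and 327 lower. Without WT female 4 and U9-KO female 1 there were 330 higher, 377 lower, 172 and 197 past 1.5-fold and 3 clock genes. TMM scaling gave 171 higher, 98 past 1.5-fold, quantile normalization 124 lower, 75 past 1.5-fold, and a mean of at least 10 left 32 and 17 past 1.5-fold, from fewer genes. *Nr1d2* and *Arntl* stayed without overlap under both scalings, where *Nr1d2* reached 1.5-fold (0.59 in each). In the males' slope 0 genes passed under every alternative. Without the trend, 1 gene passed between the genotypes in females and 1 in males, and without WT male 1, 71 passed in males (0 to 71 over the 7 fits). Leaving out 1 female, the genotype difference ran from -0.14 to 0.27 for *Dbp*, from -0.098 to 0.055 for *Arntl* and from -0.036 to 0.25 for *Nr1d2*, so all 3 turned sign. The cause was not tested. Replicate numbers did not pair the mice, as deviations of same-numbered mice correlated between -0.45 and 0.11. With the replicate number as a block 0 genes passed in either sex, and *Dbp* differed by 0.06 between the female genotypes. Without raw counts, the precision of low genes such as *Ciart* is unknown.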
